A study of Homo sapiens with 6 samples.

Results

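The 10 genes described here are sialyltransferases of the ST6GAL, ST3GAL and ST6GALNAC groups, namely ST6GAL1, ST6GAL2, ST3GAL1 to ST3GAL6, ST6GALNAC2 and ST6GALNAC6. They were taken by gene symbol from the 23180 genes of the deposited table, with each gene represented by its RefSeq transcript with the largest count over all samples. The genes were selected with their difference between siKMT9a and siControl already known, so that difference is given as a description. Calls from the fit over all genes are printed for them but are not read as support for it. RNA-Seq had been performed on A549 cells, a human lung adenocarcinoma line, at passage 11. Of the 6 samples, 3 were transfected with siControl, a control siRNA, and 3 with siKMT9a, an siRNA against KMT9α. All were harvested on day 3 after transfection with 65 nM siRNA. KMT9α is the catalytic subunit of the histone methyltransferase KMT9 and is encoded by N6AMT1. A single cell line and a single siRNA against KMT9α were sequenced, and the 3 samples of a group are labelled as biological replicates without a statement of separate cultures, so their spread may be partly technical.

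Sialyltransferases are Golgi enzymes that transfer sialic acid from its activated form, CMP-sialic acid, to the ends of glycan chains on glycoproteins and glycolipids. The ST6GAL and ST3GAL enzymes both attach it to galactose but at different carbon atoms, and the ST6GALNAC enzymes attach it to N-acetylgalactosamine, chiefly on mucin-type O-glycans and gangliosides. Terminal sialic acid masks underlying sugars, forms part of the ligands of selectins and Siglecs on immune cells, and is often altered on carcinoma cells.

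Promoter sequences are shown for the 3 genes with the largest differences and for ST3GAL4, the gene that differed most in the opposite direction. The RefSeq promoter table used here (GRCh38.p14) held windows of 250 bases before a start site for 7 of the 10 genes, and ST3GAL1, ST3GAL2 and ST6GALNAC2 were not matched. It held 4 windows for ST6GAL2, 5 for ST3GAL5, 1 for ST6GAL1 and 3 for ST3GAL4, of which the one nearest to the start of the counted transcript is shown. The counts do not tell which start site was in use, so a window shown may not be the active promoter. Transcripts with other start sites, NM_032528 of ST6GAL2, NM_001042437 of ST3GAL5 and NM_003032 of ST6GAL1, had 99.8%, 99.1% and 96.4% of the summed count of the counted transcript. The single ST6GAL1 window is that of the counted transcript, so none was held for NM_003032. Capitals mark matches on either strand to 6 short motifs. The GC box was searched by the letters GGGCGG, which 42.6% of the promoters of all genes (35116 windows of the same length) hold. The letters CCAAT occur in 32% of them. The TATA box was searched as TATAAA, found in 10.7%. The cAMP response element, TGACGTCA, is found in 1.65%. The AP-1 site was searched as TGACTCA, with matches in 4.2%. The E-box was searched as CACGTG, with matches in 6.34%. Matches that overlap were counted singly.
ST6GAL2, chr2:106886168-106886417, minus strand: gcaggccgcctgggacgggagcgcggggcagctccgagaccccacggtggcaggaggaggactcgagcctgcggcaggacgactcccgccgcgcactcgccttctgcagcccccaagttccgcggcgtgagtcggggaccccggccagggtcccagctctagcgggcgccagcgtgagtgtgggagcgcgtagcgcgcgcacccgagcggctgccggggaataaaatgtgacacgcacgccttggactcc
ST3GAL5, chr2:85889035-85889284, minus strand: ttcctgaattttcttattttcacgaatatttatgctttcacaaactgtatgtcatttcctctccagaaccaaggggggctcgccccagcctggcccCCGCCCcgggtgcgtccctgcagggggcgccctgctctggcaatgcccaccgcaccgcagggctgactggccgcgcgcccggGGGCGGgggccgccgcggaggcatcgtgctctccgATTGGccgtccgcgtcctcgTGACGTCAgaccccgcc
ST6GAL1, chr3:186930276-186930525, plus strand: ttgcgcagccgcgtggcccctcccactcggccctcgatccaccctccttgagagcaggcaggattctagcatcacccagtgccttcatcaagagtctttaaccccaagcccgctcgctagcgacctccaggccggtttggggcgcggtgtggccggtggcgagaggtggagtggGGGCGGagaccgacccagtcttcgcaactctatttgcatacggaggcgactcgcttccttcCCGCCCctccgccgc
ST3GAL4, chr11:126355762-126356011, plus strand: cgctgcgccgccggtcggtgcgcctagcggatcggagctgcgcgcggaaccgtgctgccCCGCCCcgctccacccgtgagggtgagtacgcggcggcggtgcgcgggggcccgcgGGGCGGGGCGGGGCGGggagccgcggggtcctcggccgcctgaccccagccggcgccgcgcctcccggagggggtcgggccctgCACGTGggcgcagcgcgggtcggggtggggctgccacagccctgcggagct
The 4 windows shown did not share a motif. The ST6GAL2 window shown held none of the 6 motifs, although 72.8% of its bases were G or C and it held 31 CpG dinucleotides. Over all windows the medians were 58.0% and 11. Of the other 3 ST6GAL2 windows, 1 held 3 GC boxes and the rest held none of the motifs. The ST3GAL5 window held 2 GC boxes, a CCAAT match and a cAMP response element, and 1 of its other 4 windows, which overlaps it, held the response element too. The ST6GAL1 window held 2 GC boxes. The ST3GAL4 window held 4 GC boxes, of which 3 overlap, and an E-box, and its start site lies 189 bases from the start of the counted transcript. The windows of ST3GAL3, ST3GAL6 and ST6GALNAC6 nearest to the counted transcripts held 3, 3 and 4 GC boxes.

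An siRNA can also pair with other transcripts through bases 2 to 8 of its guide strand. For the siKMT9α#1 sequence given in the methods, these bases are complementary to ACATTCA. This sequence was found in the 3′ UTR of ST6GAL2 at 1 site and in no 3′ UTR or coding sequence of the 9 other genes. The site begins 387 bases after the stop codon of the ST6GAL2 transcript in the GENCODE annotation on GRCh37, and capitals mark the matching bases.
ST6GAL2 3′ UTR, chr2:107422731-107422757, minus strand: atgtttagaaACATTCAaattgaggga
Among the longest 3′ UTRs of 19284 genes, 14.0% held the same letters, as did 37% of the 1444 that were 4000 to 6000 bases long, the range of the 5078 bases of ST6GAL2. The 3′ UTRs searched came from GENCODE and can be longer than the counted RefSeq transcripts, as for ST3GAL2 and ST3GAL6.

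The counts per sample, with each gene counted once, summed to between 15551780 and 18568634 for siControl and between 13740098 and 19832394.5 for siKMT9a. Expression is given below as CPM, the counts of a gene relative to the total of its sample after TMM normalisation. N6AMT1, on chromosome 21 from 30244513 to 30257693 (hg19), was at 10.2, 10.8 and 11.5 CPM in siControl and at 2.87, 3.22 and 3.35 CPM in siKMT9a, a log2 fold change of -1.77 (SE 0.12). Of 13877 genes tested with the quasi-likelihood test of edgeR, 75.6% had a Benjamini-Hochberg adjusted p under 0.05, with 37.1% higher and 38.5% lower in siKMT9a. The threshold of the study, an unadjusted p under 1e-08 with a log2 fold change beyond 0.26, was passed by 24.2%, and in 77.0% the values of the groups did not overlap. Of the 5 epithelial markers all were detected, and their summed level was 3214 to 3576 CPM in siControl and 1725 to 1816 CPM in siKMT9a. KRT8 and KRT18 made up most of this sum. EPCAM went from 3.86 ± 0.40 CPM to 0.593 ± 0.15 CPM and CDH1, in the opposite direction, from 3.39 ± 0.94 CPM to 8.62 ± 0.96 CPM. Over 4 leukocyte markers it was 3.22 to 3.77 CPM and 1.74 to 2.28 CPM with CD3E at 0, over 3 endothelial markers 0.494 to 0.803 CPM and 0.0756 to 0.157 CPM, and over 4 fibroblast markers 6.52 to 8.15 CPM and 3.00 to 3.22 CPM with COL1A2 at 0. The part of these shifts in the results below was not tested. In RNA from whole cultures, fewer cells of a type and less RNA per cell cannot be told apart.

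All 10 sialyltransferases passed the filter on low counts, and their differences ranged from a log2 fold change of 4.42 to one of -0.70. The adjusted p was under 0.05 and the level higher in siKMT9a for 7 of them, lower for 1 and not under 0.05 for 2. The threshold of the study was passed by 4, and by 3 to 6 under alternative settings, with 6 for the likelihood-ratio test. The call of ST3GAL3 was lost under 8 of 17 alternative settings, and ST3GAL6 was called under 4. The groups did not overlap for 9. The median log2 fold change of the 10 genes was 0.63 and that of all genes tested was -0.01. Because the genes were selected on this contrast, nothing is read from these counts.

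**Figure D1:**
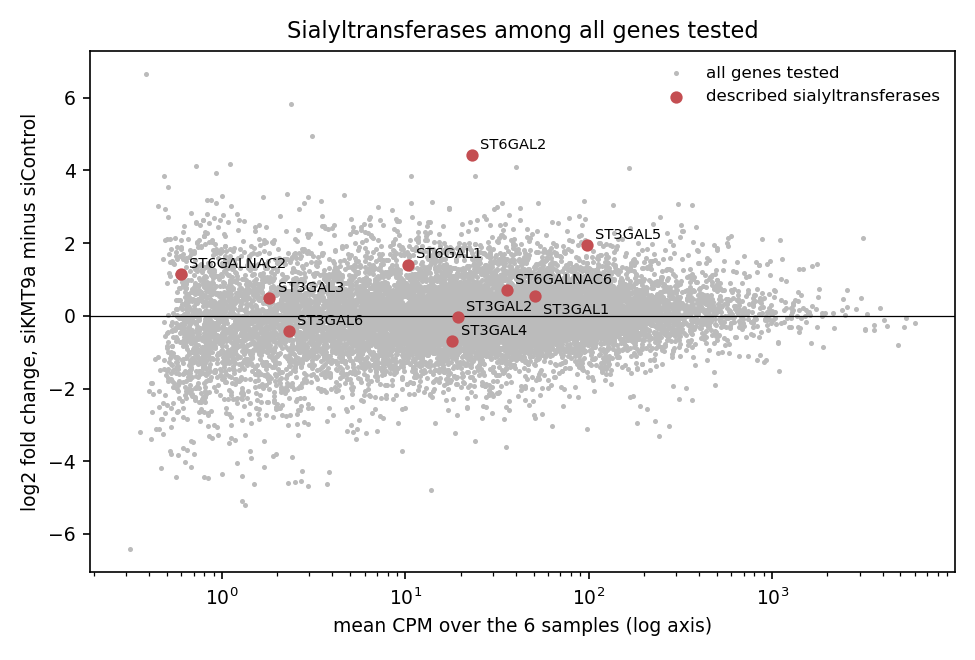
Log2 fold change of siKMT9a against siControl (vertical axis) against mean CPM over the 6 samples (horizontal log axis) for all 13877 genes tested (grey) and the 10 sialyltransferases (red, named). ST6GAL2 lies at the upper edge of the cloud with a log2 fold change of 4.42, and ST3GAL2 lies on the zero line.

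The ST6GAL enzymes, which attach sialic acid to the galactose of lactosamine chains, were both higher in siKMT9a. ST6GAL2 (NM_001142351, chr2:107418056-107502610, hg19), the enzyme of this pair known for its expression in brain, had counts of 42, 34.5 and 36 in siControl and of 553, 560 and 951.5 in siKMT9a. These correspond to 2.23, 2.13 and 1.87 CPM and to 41.8, 40.9 and 49.8 CPM. Every siKMT9a sample was far above every siControl sample. The mean of 3 samples ± SD was 2.08 ± 0.19 CPM in siControl and 44.2 ± 4.88 CPM in siKMT9a. Its log2 fold change of 4.42 (SE 0.12), or 21.4-fold, ranked 4 of 13877 genes from the most positive. Its log2 fold change stayed between 4.32 and 4.50 when any sample was left out.

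ST6GAL1 (NM_173216, chr3:186648315-186796341), the widely expressed enzyme that caps N-glycans with sialic acid and is often raised in carcinomas, was at 6.72, 4.94 and 5.28 CPM in siControl and at 15.2, 14.2 and 15.7 CPM in siKMT9a. The groups were separated by a gap wider than the range of either. The means were 5.64 ± 0.94 CPM and 15.0 ± 0.77 CPM, a log2 fold change of 1.41 (SE 0.11) or 2.66-fold. ST6GAL1 was the more abundant ST6GAL gene in siControl and ST6GAL2 in siKMT9a, also per kilobase of transcript (1.23 ± 0.21 and 0.31 ± 0.03 CPM per kb in siControl, 3.27 ± 0.17 and 6.52 ± 0.72 CPM per kb in siKMT9a). In translated coding sequences, 42.3% of the aligned residues of the 406 of ST6GAL1 and the 529 of ST6GAL2 were identical.

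The 6 ST3GAL enzymes differed in both directions. ST3GAL5 (NM_003896, chr2:86066271-86116157) encodes the synthase of the ganglioside GM3, which sialylates lactosylceramide and opens the pathway to most gangliosides. It was at 41.4, 42.2 and 37.1 CPM in siControl and at 149.5, 155.6 and 159.1 CPM in siKMT9a. The values varied little within either group. The means were 40.2 ± 2.72 CPM and 154.7 ± 4.90 CPM, a log2 fold change of 1.95 (SE 0.06) or 3.85-fold, at rank 256 of 13877 genes.

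ST3GAL1 and ST3GAL2 sialylate the galactose of the core 1 O-glycan, and ST3GAL2 also acts on gangliosides. They were the most alike pair by sequence, with 51.0% of aligned residues identical. ST3GAL1 (NM_003033, chr8:134467091-134584183) was at 43.6, 38.7 and 41.2 CPM in siControl and at 63.2, 60.7 and 58.2 CPM in siKMT9a, a log2 fold change of 0.56 (SE 0.06). Every siKMT9a sample was above every siControl sample. ST3GAL2 (NM_006927, chr16:70413338-70472991) was at 19.9, 17.4 and 21.3 CPM in siControl and at 19.4, 18.4 and 19.4 CPM in siKMT9a. All siKMT9a samples lay inside the siControl range, and the log2 fold change of -0.04 (SE 0.08) was smaller than its error.

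ST3GAL3, ST3GAL4 and ST3GAL6 act mainly on lactosamine chains and contribute to sialyl Lewis antigens, which bind selectins. ST3GAL4 (NM_006278, chr11:126226096-126284533) was at 21.6, 23.4 and 21.9 CPM in siControl and at 15.5, 12.4 and 13.3 CPM in siKMT9a. Every siKMT9a sample was below every siControl sample. The means were 22.3 ± 0.97 CPM and 13.7 ± 1.60 CPM, a log2 fold change of -0.70 (SE 0.09).

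ST3GAL6 (NM_006100, chr3:98451572-98513236) was at 3.13, 2.66 and 2.16 CPM in siControl and at 1.93, 2.12 and 1.91 CPM in siKMT9a, a log2 fold change of -0.42 (SE 0.19). The lowest siControl sample and the highest siKMT9a sample nearly met. ST3GAL3 (NM_174963, chr1:44173218-44396831) was at 1.30, 1.70 and 1.53 CPM in siControl and at 2.38, 2.12 and 1.86 CPM in siKMT9a, a log2 fold change of 0.48 (SE 0.21). The groups did not overlap, but the gap between them was narrow. ST3GAL4 and ST3GAL6 shared 40.1% of aligned residues, and ST3GAL3 and ST3GAL4 38.3%.

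Both ST6GALNAC enzymes among the 10 genes were higher in siKMT9a. ST6GALNAC6 (NM_013443, chr9:130647601-130661871), which acts on gangliosides and on sialylated Lewis structures, was at 27.2, 27.8 and 26.5 CPM in siControl and at 47.6, 42.5 and 43.0 CPM in siKMT9a. The groups stood well apart, with means of 27.2 ± 0.64 CPM and 44.4 ± 2.81 CPM and a log2 fold change of 0.71 (SE 0.06). ST6GALNAC2 (NM_006456, chr17:74561461-74582145), an O-glycan enzyme, was the least abundant of the 10. Its counts were 6, 3.5 and 10.5 in siControl and 12, 12 and 13.5 in siKMT9a, or 0.319, 0.216 and 0.546 CPM and 0.907, 0.877 and 0.706 CPM. It reached the level of the filter, 0.592 CPM, in the siKMT9a samples alone, so it could be tested through the group where it is higher. The log2 fold change was 1.15 (SE 0.35), the largest error among the 10.

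**Figure D2:**
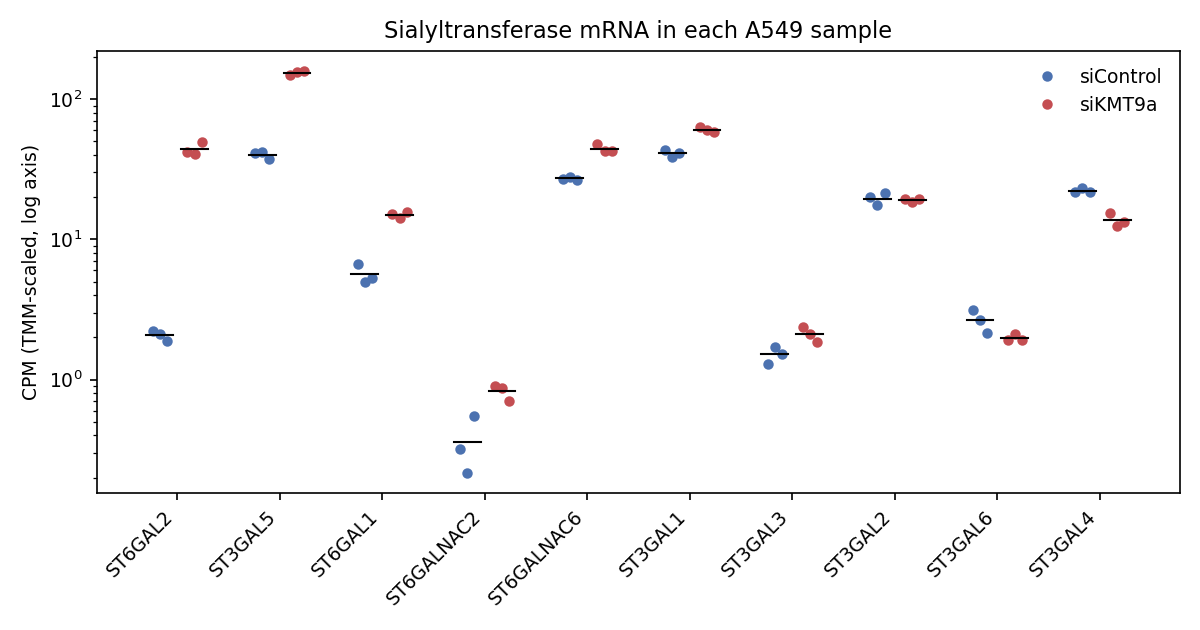
CPM (TMM-scaled, vertical log axis) of each sialyltransferase in the 3 siControl (blue) and 3 siKMT9a (red) samples, ordered by log2 fold change. Points are samples and bars are group means, and the groups overlap for ST3GAL2, whose siKMT9a values of 18.4 to 19.4 CPM lie within the siControl range.

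To compare the genes with each other, levels were divided by transcript length. In siControl the order from the highest was ST3GAL5 (16.99 ± 1.15 CPM per kb), ST3GAL4 (12.9 ± 0.56), ST6GALNAC6 (11.4 ± 0.27), ST3GAL1 (5.92 ± 0.36) and ST3GAL2 (4.41 ± 0.44). The other 5 were at or below 1.28 CPM per kb, and of all neighbours in the siControl order only ST3GAL6 and ST6GAL1 had overlapping ranges. In siKMT9a the order began with ST3GAL5 (65.3 ± 2.07 CPM per kb), ST6GALNAC6 (18.6 ± 1.18), ST3GAL1 (8.73 ± 0.36), ST3GAL4 (7.97 ± 0.93) and ST6GAL2 (6.52 ± 0.72). The ranges of ST3GAL1, ST3GAL4 and ST6GAL2 overlapped from neighbour to neighbour, as did those of ST3GAL6 and ST3GAL3. ST6GAL2 moved from the rank 9 to the rank 5 and ST3GAL4 from the rank 2 to the rank 4.

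The summed level of the 10 genes was 55.3 ± 1.45 CPM per kb in siControl and 116.9 ± 1.77 CPM per kb in siKMT9a. ST3GAL5 alone made up 30.7% ± 1.32 of it in siControl and 55.9% ± 1.83 in siKMT9a. ST3GAL4 made up 23.4% ± 0.97 and 6.81% ± 0.75. The ST6GAL genes together made up 2.78% ± 0.37 and 8.37% ± 0.62, of which ST6GAL2 held 0.554% ± 0.04 and 5.57% ± 0.55. The ST3GAL genes together kept a similar share, 76.3% ± 0.22 and 75.4% ± 0.83, as their summed level went from 42.2 ± 1.20 to 88.1 ± 1.03 CPM per kb. ST3GAL1 and ST3GAL2 held smaller shares in siKMT9a although the level of ST3GAL1 was higher, at 5.92 and 8.73 CPM per kb, and that of ST3GAL2 nearly the same, at 4.41 and 4.30 CPM per kb. ST6GALNAC2 and ST6GALNAC6 together likewise held 20.9% ± 0.35 and 16.2% ± 0.99 of the sum. Their own level was higher in siKMT9a, with 11.6 ± 0.19 and 19.0 ± 1.20 CPM per kb. ST6GALNAC4 and ST6GALNAC3 are not among the 10 and lie outside the sum. ST6GALNAC4 was at 9.91 ± 0.49 CPM per kb in siControl and at 8.18 ± 1.08 CPM per kb in siKMT9a. ST6GALNAC3 was at 0.44 ± 0.03 and 0.92 ± 0.07 CPM per kb. These shares describe mRNA and not enzyme activity.

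**Figure D3:**
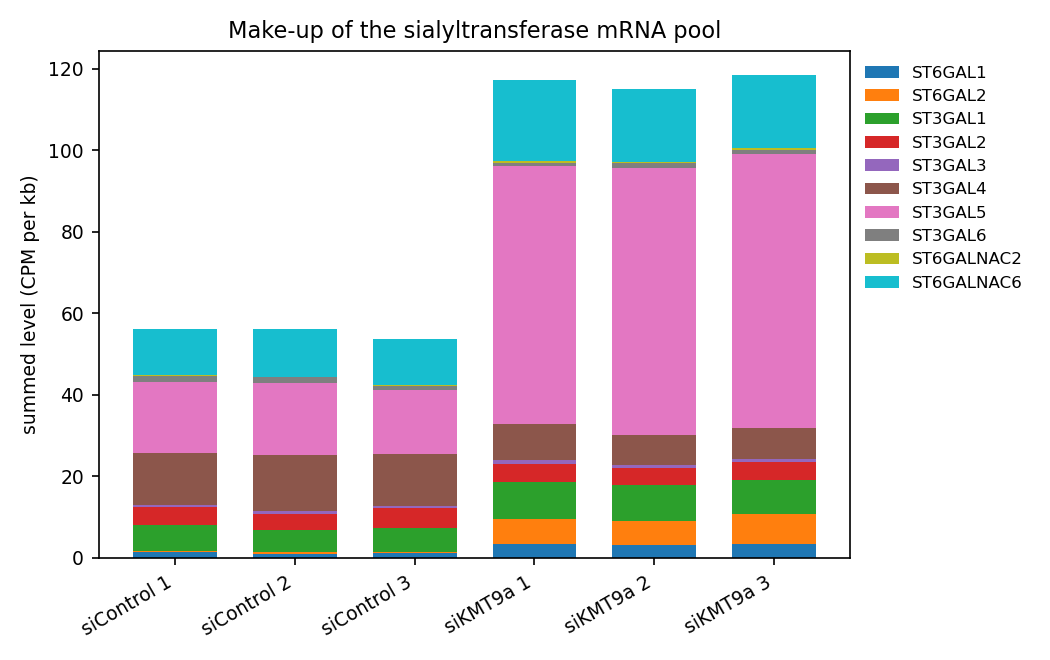
Summed level of the 10 sialyltransferases (CPM per kb of transcript, vertical axis) in each of the 6 samples, with coloured segments for the genes. The bars reach 53.6 to 56.1 CPM per kb in siControl and 115.0 to 118.5 CPM per kb in siKMT9a, and the ST3GAL5 segment makes up most of the difference.

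The choice of transcript changed little. When every transcript was fitted, the 3 transcripts of ST6GAL1 had log2 fold changes of 1.41 to 1.43, the 3 of ST6GAL2 of 4.38 to 4.42, and the 10 of ST3GAL3 of 0.44 to 0.50. The 2 transcripts of ST3GAL1 were at 0.56 and the 2 of ST3GAL5 at 1.95. Transcripts of a gene share exons and most of their reads, so they do not count as separate observations. The shortest ST6GAL2 transcript, NM_001142352, does not reach the 3′ end of the others and had counts of 3.5, 4 and 5 in siControl and of 73.5, 71.5 and 90 in siKMT9a, so it was higher in siKMT9a, as the longer forms were. No other gene of the deposited table overlapped the 10. GENCODE places RNAs of the opposite strand at several of them, among them ST3GAL3-AS1, ST3GAL6-AS1 and SNHG16 at ST6GALNAC2. The use of strand in counting is not stated, so their reads cannot be told apart from those of the sialyltransferases where exons overlap. On the same strand it places ST6GAL2-IT1, and further protein-coding genes at ST3GAL3, ST6GALNAC2 and ST6GALNAC6. Where exons of these overlap the sialyltransferases, knowing the strand would not separate their reads either.

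The gene lists below were chosen with earlier results of these data known, so their counts and adjusted p are a description. Of the 10 other sialyltransferase genes, 3 were expressed enough to be tested. All 3 passed the adjusted p of 0.05 in the edgeR quasi-likelihood test, 1 higher and 2 lower. Among all genes tested, 75.6% passed it. ST8SIA4, a polysialyltransferase, was at 9.24, 7.66 and 8.76 CPM in siControl and at 3.44, 3.65 and 4.03 CPM in siKMT9a. It fell without overlap of the groups, with a log2 fold change of -1.19 (SE 0.13, adjusted p = 8.94e-08). ST6GALNAC3, a ganglioside and O-glycan enzyme, rose from 1.41 ± 0.09 CPM to 3.00 ± 0.24 CPM, a log2 fold change of 1.08 (SE 0.19, adjusted p = 3.63e-05 from edgeR). Its shorter transcript NM_001160011 had counts of 19.5, 12 and 13.5 in siControl and of 8.5, 8 and 8.5 in siKMT9a and a log2 fold change of the opposite sign, -0.69. ST6GALNAC4, which extends sialylated core 1 O-glycans, fell from 16.7 ± 0.82 CPM to 13.7 ± 1.81 CPM, a log2 fold change of -0.30 (SE 0.10, adjusted p = 0.00949 from edgeR), and without siKMT9a replicate 3 the adjusted p was 0.102. The 7 other genes were not tested. ST6GALNAC5 and ST8SIA3 had no count in any sample, which allows up to 3 counts in each. ST6GALNAC1, ST8SIA1, ST8SIA2, ST8SIA5 and ST8SIA6 had at most 4 counts in a sample.

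**Figure D4:**
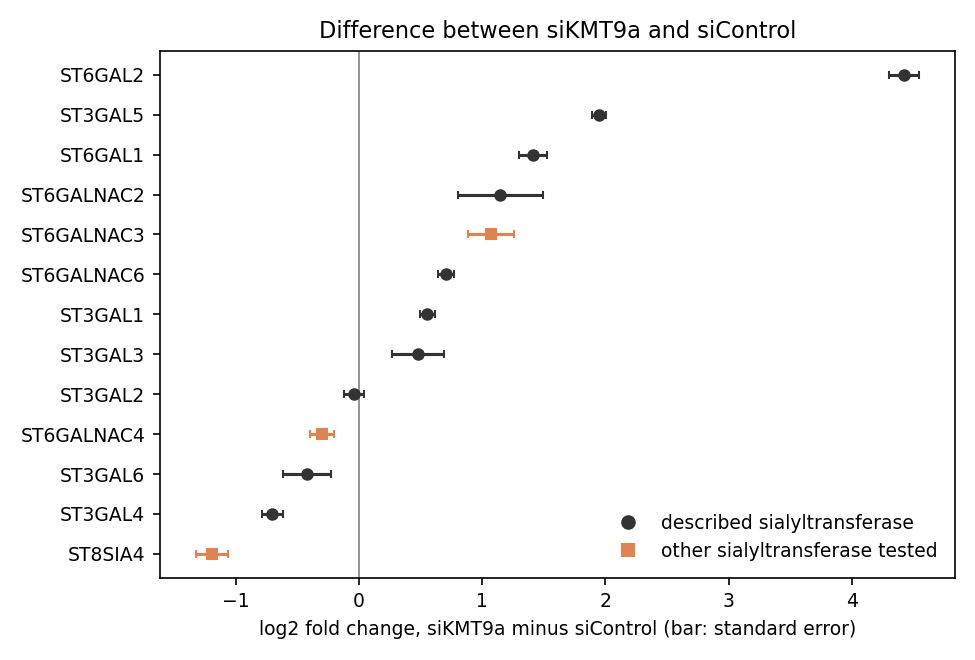
Log2 fold change of siKMT9a against siControl (horizontal axis, bars are standard errors) for the 10 sialyltransferases described (black circles) and the 3 others tested (orange squares). ST6GAL2 stands at 4.42, ST3GAL5 at 1.95, and ST8SIA4 is the lowest at -1.19.

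Sialyltransferases draw on CMP-sialic acid, and the 8 genes of its synthesis, activation and transport all passed the adjusted p of 0.05, 2 higher and 6 lower, beside 37.1% higher and 38.5% lower of all genes tested. Their median log2 fold change was -0.67. GNE, the rate-limiting enzyme of sialic acid synthesis, was at 32.5, 32.9 and 31.0 CPM in siControl and at 103.6, 106.3 and 96.1 CPM in siKMT9a. It rose with a log2 fold change of 1.66 (SE 0.06, edgeR adjusted p = 3.75e-15), whereas the steps after it mostly fell. NANS, the sialic acid synthase, fell by 0.42 on the log2 scale (edgeR adjusted p = 3.02e-07), and NANP, the phosphatase that follows it, rose by 0.28 (edgeR adjusted p = 0.00414), a call lost with the library size as the only scaling (adjusted p = 0.0586). CMAS, which activates sialic acid to CMP-sialic acid, fell from 102.7 ± 0.69 CPM to 54.7 ± 1.00 CPM, a log2 fold change of -0.91 (SE 0.05, edgeR adjusted p = 2.77e-12).

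SLC35A1, which carries CMP-sialic acid into the Golgi, fell from 45.6 ± 1.66 CPM to 21.7 ± 2.53 CPM, a log2 fold change of -1.07 (SE 0.07, edgeR adjusted p = 1.24e-10). In each of these genes the groups did not overlap. SLC17A5, the lysosomal exporter of sialic acid, fell by 0.39 on the log2 scale (edgeR adjusted p = 1.73e-05) and NPL, the sialic acid lyase, by 0.98 (edgeR adjusted p = 8.58e-05). RENBP, an epimerase of the sialic acid precursor, fell from counts of 13, 12 and 19.5 to 2, 0 and 5, a log2 fold change of -2.39 (SE 0.49, edgeR adjusted p = 0.00023). It passed the filter on low counts through siControl, the group where it is higher, and its log2 fold change was -3.35 without siKMT9a replicate 3.

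Genes that remove or modify sialic acid changed in both directions, with 2 higher and 3 lower of 5 tested and a median log2 fold change of -0.16. Among all genes tested, 37.1% were higher and 38.5% lower. SIAE, the sialic acid acetylesterase, rose from 14.6 ± 1.58 CPM to 31.5 ± 1.65 CPM, a log2 fold change of 1.11 (SE 0.08, edgeR adjusted p = 3.18e-10). CTSA, the protective protein of lysosomal sialidase, fell from 313.9 ± 11.6 CPM to 216.4 ± 11.0 CPM, a log2 fold change of -0.54 (SE 0.05, edgeR adjusted p = 1.16e-08). The lysosomal sialidase itself, NEU1, fell by 0.16 on the log2 scale (edgeR adjusted p = 0.0049), and its adjusted p was 0.0763 and 0.102 under the 2 alternatives with offsets for GC content. The groups overlapped for NEU3, the sialidase of gangliosides (log2 fold change -0.39, edgeR adjusted p = 0.017, and 0.0525 to 0.0941 under the 5 alternatives that lost the call), and for CASD1, which acetylates sialic acid (0.24, edgeR adjusted p = 0.0144, and 0.0652 to 0.143 under the 3 that lost it). NEU2 had no count, which allows up to 3 in each sample, and NEU4, with at most 13 counts in a sample, was not tested.

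Of the lists of enzymes that build the acceptor chains, the glycosphingolipid list stood higher in all 6 genes tested, with a median log2 fold change of 0.47. Of all genes tested, 37.1% were higher. As this list was chosen with earlier results known, its count is a description. B3GALNT1, on the list but too low to be tested, had 1.06, 0.494 and 0.624 CPM in siControl and 0.227, 0 and 0.235 CPM in siKMT9a without overlap, and under 5 alternatives 1 gene of the list was called lower. B4GALT6 is among the enzymes that make lactosylceramide, which ST3GAL5 uses. It was at 7.91, 7.72 and 6.26 CPM in siControl and at 20.3, 24.4 and 28.7 CPM in siKMT9a. It rose with a log2 fold change of 1.77 (SE 0.12, edgeR adjusted p = 1.15e-10), and the groups did not overlap. B3GNT5, which starts the lacto-series chains, rose from 31.3 ± 2.96 CPM to 75.9 ± 3.34 CPM, a log2 fold change of 1.28 (SE 0.07, edgeR adjusted p = 1.37e-12). The other 4, UGCG, B4GALT5, B4GALNT1 and A4GALT, rose by 0.29 to 0.53 on the log2 scale. Of these, B4GALT5 is of the same family as B4GALT6 and was more abundant. It rose from 125.7 ± 5.75 CPM to 167.4 ± 6.30 CPM, a log2 fold change of 0.41 (SE 0.05, edgeR adjusted p = 4.14e-07).

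Of 14 mucin-type O-glycan genes tested, 10 were higher and 4 lower, with a median log2 fold change of 0.60. Among all genes tested, 37.1% were higher and 38.5% lower. The list did not hold every GALNT gene, and of 6 others tested 1 was higher, 1 lower and 4 not called. The lower one, GALNT5, named here after its values were seen, had a log2 fold change of -2.50 (edgeR adjusted p = 1.65e-15), a larger fall than that of any gene on the list. GALNT10, an enzyme that starts O-glycans on peptides, rose from 53.5 ± 2.49 CPM to 206.5 ± 10.4 CPM, a log2 fold change of 1.95 (SE 0.05, edgeR adjusted p = 2.27e-16). GALNT2, of the same function, rose from 76.5 ± 3.73 CPM to 238.9 ± 12.7 CPM, a log2 fold change of 1.64 (SE 0.05, edgeR adjusted p = 2.25e-15). GALNT6, also of that function, fell from 5.21 ± 0.75 CPM to 2.09 ± 0.15 CPM, a log2 fold change of -1.32 (SE 0.17, edgeR adjusted p = 8.46e-07). GCNT4, which branches O-glycans, fell from 5.95 ± 0.89 CPM to 1.40 ± 0.17 CPM, a log2 fold change of -2.09 (SE 0.19, edgeR adjusted p = 4.89e-09). GCNT3, of the same family and far more abundant, rose from 279.6 ± 8.06 CPM to 360.4 ± 6.32 CPM. Its log2 fold change was 0.37 (SE 0.05, edgeR adjusted p = 6.29e-07). GCNT1, also of that family, fell by 0.94 on the log2 scale (edgeR adjusted p = 6.2e-05).

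Of the 14 N-glycan genes tested, 6 were higher, 2 lower and 6 not called, with a median log2 fold change of 0.12. Among all genes tested, 37.1% were higher and 38.5% lower. The galactosyltransferases B4GALT4 and B4GALT1, which add the galactose that ST6GAL and ST3GAL enzymes use, rose by 0.72 (SE 0.06, edgeR adjusted p = 6.03e-10) and 0.48 (SE 0.06, edgeR adjusted p = 1.06e-06) on the log2 scale. B4GALT2, of the same family, fell by 0.48 on the log2 scale (SE 0.07, edgeR adjusted p = 2.16e-06). MGAT4A, a branching enzyme, fell from 5.31 ± 0.34 CPM to 2.62 ± 0.53 CPM, a log2 fold change of -0.999 (SE 0.16, edgeR adjusted p = 1.24e-05). MGAT4B, of the same family and far more abundant, rose from 141.5 ± 1.94 CPM to 168.2 ± 1.82 CPM. Its log2 fold change was 0.25 (SE 0.05, edgeR adjusted p = 5.62e-05). Of 10 listed fucosyltransferases, 4 were tested, 2 higher and 2 lower, beside the same shares of 37.1% and 38.5% of all genes tested. FUT1, which makes the H antigen on galactose ends, fell from 3.68 ± 0.49 CPM to 0.246 ± 0.11 CPM, a log2 fold change of -3.80 (SE 0.29, edgeR adjusted p = 5.49e-10). Its counts in siKMT9a were 2, 3 and 7, all below the level of the filter, which it passed through siControl alone. FUT4, a fucosyltransferase of Lewis X, fell by 0.40 on the log2 scale (edgeR adjusted p = 5.26e-05). FUT11 rose by 0.35 (edgeR adjusted p = 0.00628) and FUT10 by 0.25 (edgeR adjusted p = 0.035), and 6 alternatives took FUT10 to an adjusted p of 0.0811 to 0.206.

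**Figure D5:**
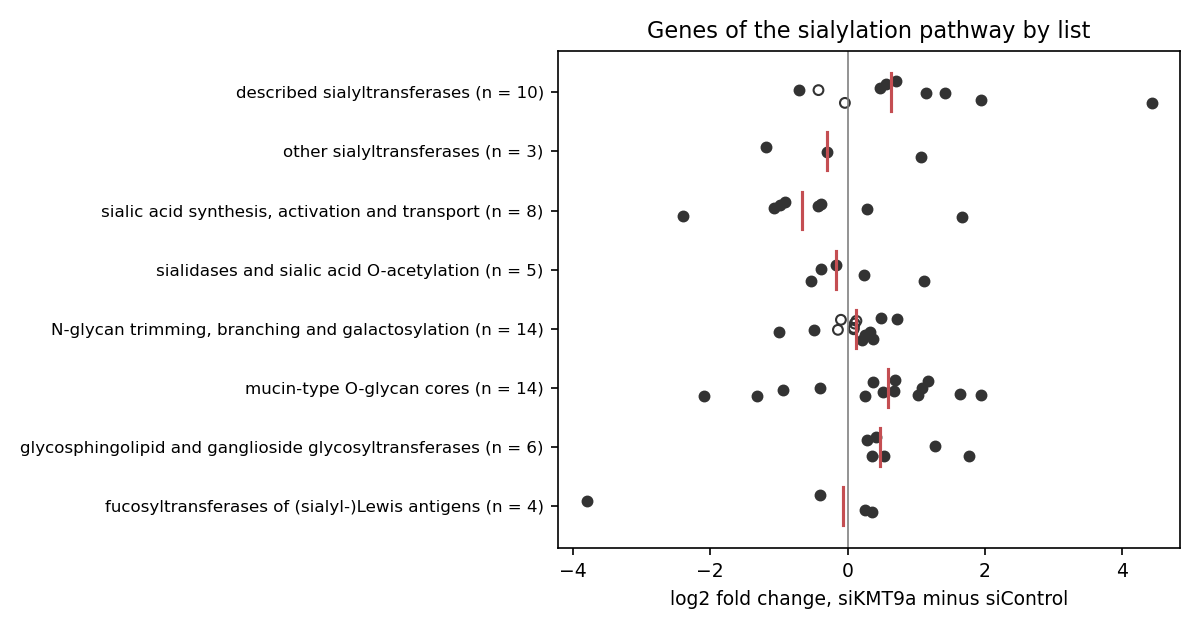
Log2 fold change of siKMT9a against siControl (horizontal axis) for the tested genes of each list, with filled circles for an adjusted p under 0.05, open circles for the rest and a red bar at the median. The 6 glycosphingolipid genes all lie above 0, and the sialic acid synthesis genes have a median of -0.67 with GNE apart at 1.66.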

How the data were processed

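RNA-Seq counts of 6 A549 samples were used, 3 siControl and 3 siKMT9a. Groups and replicate numbers came from the sample labels, and day and siRNA dose from the study's methods. The authors used STAR for alignment to hg19 and the analyzeRepeats command of HOMER for counting, and the deposited values are estimated counts per RefSeq transcript, without normalization. The study's methods state the STAR version. The HOMER version, its counting options and the use of strand are not given in the sources used here. Of the deposited values 36.4% were not whole. The authors also deposited a fold change, p-value and adjusted p-value per transcript from edgeR, which were not used.

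The table had 38767 rows, of which 1182 without a gene symbol were left out. The transcript with the largest summed count represented each of 23180 genes. After rounding to integers, counts went into edgeR 4.0.16 under R 4.3.3 (TMM, filterByExpr, quasi-likelihood F test, Benjamini-Hochberg adjustment over the 13877 genes tested). The median SE was 0.0768 on the log2 scale, at a biological coefficient of variation of 4.47%. SE was the log2 fold change divided by the square root of F. Tests were two-sided. CPM were divided by deposited transcript length for levels between genes. Positions are hg19. Sequences are from RefSeq (GRCh38.p14) and GENCODE (GRCh37). The code was run on simulated data in which far fewer genes changed than were called here. That run did not test the calls where most genes differ.

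Alternatives were the likelihood-ratio test, DESeq2 1.42.0, other scalings and filters, every or the longest transcript, a replicate block, and leaving out each sample. Offsets for GC content were added after seeing the data. Genes named were N6AMT1, the 10 sialyltransferases and all measured genes of the sialyltransferase, sialic acid and sialidase lists. Of the other lists, up to 2 genes with the largest changes in each direction were named (adjusted p under 0.05, mean of at least 1 CPM). Further genes were named to complete a count. GALNT5, GCNT1, GCNT3 and MGAT4B were named after their values were seen. The genes and lists were chosen with earlier results of these data known.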

Additional observations from a re-analysis of the deposited data

How the results depend on the processing

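Over 17 alternatives the 10 sialyltransferases gave 169 values, of which 154 kept direction and side of the threshold, 8 lost the call, 4 gained it and 3 turned direction. All 8 losses were of ST3GAL3, 4 of them without siControl replicate 1 or 3 or siKMT9a replicate 1 or 2, and all 4 gains were of ST3GAL6, 1 of them without siControl replicate 3. The 3 turns were of ST3GAL2, to 0.04 without siControl replicate 3, 0.0120 with GC offsets and 0.0119 with a replicate block and GC offsets. Leaving out samples moved ST3GAL2 between -0.102 and 0.04. ST6GALNAC2 could not be tested with at least 10 counts in every sample. With library size alone the median of all genes shifted by -0.105 and MAN1B1 (-0.00064), MGAT1 (-0.017) and B4GALT3 (-0.014) turned negative. The cause of these changes was not tested.

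Genes past the threshold of the study numbered 5962 with the likelihood-ratio test and 6070 without a filter, against 3357. Library size alone gave 1 higher gene for sialic acid synthesis (2 in the report), 1 for sialidases (2), 1 for fucosyltransferases (2) and 4 lower N-glycan genes (2). GC offsets gave 10 higher N-glycan genes (6). GC offsets, DESeq2 and the replicate block with GC offsets each gave 1 higher fucosyltransferase (2). Without a filter 4 fucosyltransferases were higher and 1 glycosphingolipid gene lower (0), and with at least 10 counts 1 fucosyltransferase was lower (2). Leaving out samples gave 1 to 2 lower other sialyltransferases (1 without siKMT9a replicate 3), 1 to 2 higher sialidase genes (1 without siControl replicate 2 or siKMT9a replicate 3), 1 to 2 higher fucosyltransferases (1 without siControl replicate 3 or siKMT9a replicate 1) and 0 to 1 lower glycosphingolipid genes (1 without siControl replicate 2 or any siKMT9a replicate). Same-numbered samples did not deviate together (correlations of -0.121, 0.0403 and -0.107). With a replicate block 10229 genes had an adjusted p under 0.05, against 10492, with 7 of the 10 sialyltransferases among them, against 8. Depth limits ST6GALNAC2, ST3GAL3 and ST3GAL6, which had at most 59 counts in a sample.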
